A study of Homo sapiens with 4 samples.

Results

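Small nucleolar RNA (snoRNA) and small Cajal body RNA (scaRNA) genes were followed in RNA-seq of HCT116 cells, a human colorectal carcinoma cell line. The genes were chosen by a symbol starting with SNORD, SNORA or SCARNA, given to the Ensembl identifier of a counted row by GENCODE release 44, and by a measured total of at least 1 count over the 4 libraries. Of 63677 genes counted, 494 carried such a symbol and 116 had a count. These 116 were 45 box C/D snoRNA genes (SNORD), 54 box H/ACA snoRNA genes (SNORA) and 17 scaRNA genes (SCARNA). Because the total count selected them, being detected is a description of these libraries and not a finding.

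Every library came from HCT116 cells transfected with an antisense oligonucleotide (ASO), a chemically modified DNA strand that pairs with RNA and leads to its cleavage by RNase H. One group of 2 libraries received an ASO against tandem GAA repeats in RNA (anti-GAA) and the other group of 2 received a control ASO, and no library of untransfected cells was analysed here. The labels give 48 h of transfection for both groups, while the study's methods state a shorter time for ASOs, and both groups come from the same line. The comparison asks which RNAs change in level when GAA-repeat RNAs are targeted. The sources differ on the libraries, since the labels call them total RNA and name a total RNA library kit, while the study's methods name a kit that enriches messenger RNA by its poly(A) tail. Mature snoRNAs and scaRNAs lack that tail, so how far the low counts below reflect the library type cannot be told apart from low levels of these RNAs. The libraries held between 10538284 and 17894953 counted reads, the smallest being anti-GAA 1. Of 7 epithelial marker genes, KRT19 and EPCAM had 6343 counts or more in every library, whereas VIL1 had 0 to 2. Of 8 blood, stromal and endothelial markers, 3 were at 0 in all libraries and COL1A1 had 100 to 247 counts.

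Most human snoRNAs lie in introns of host genes and are released from the spliced and debranched intron by exonucleases. Box C/D snoRNAs carry a C box near the 5′ end and a D box near the 3′ end, bind fibrillarin, and mostly guide 2′-O-methylation of ribosomal RNA. Box H/ACA snoRNAs fold into hairpins, end shortly after an ACA triplet, bind dyskerin, and mostly guide pseudouridylation. scaRNAs are built from the same boxes but reside in Cajal bodies, where they guide modification of spliceosomal RNAs. A few, such as U3 (SNORD3A) and U17 (SNORA73A and SNORA73B), act in cleavage of the ribosomal RNA precursor instead of guiding a modification.

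The genes on which the counts and comparisons below turn are shown first, as GENCODE release 44 transcripts 5′ to 3′, with GRCh38 positions that are not those of the hg19 alignments. In 4 box C/D genes, capitals mark the D box (CTGA in the last 20 nt) and, where present in the first 25 nt, the C box core (TGATGA). SNORD104 (chr17:64146083-64146152, plus strand) held the most counts, SNORD60 (chr16:2155023-2155105, minus strand) and SNORD99 (chr1:28578749-28578822, minus strand) followed per unit length, and SNORD14A (chr11:17074654-17074744, minus strand) was the one box C/D gene among those tested that was lower in both replicate pairs.
SNORD104: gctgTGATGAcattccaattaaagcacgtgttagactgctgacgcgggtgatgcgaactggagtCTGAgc
SNORD60: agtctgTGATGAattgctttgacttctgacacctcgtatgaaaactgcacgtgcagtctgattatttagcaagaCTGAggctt
SNORD99: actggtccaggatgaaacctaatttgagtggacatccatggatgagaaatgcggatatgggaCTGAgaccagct
SNORD14A: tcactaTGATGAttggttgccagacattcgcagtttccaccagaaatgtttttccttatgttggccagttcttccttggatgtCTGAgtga
In the H/ACA genes and in SCARNA13, capitals mark the ACA triplet within the last 6 nt. SNORA33 (chr6:132817219-132817348, plus strand) held the most H/ACA counts, SNORA73B (chr1:28508559-28508762, plus strand) is a U17 gene, and SCARNA13 (chr14:95533355-95533629, minus strand) held the most scaRNA counts. SCARNA17 (chr18:49814133-49814276, plus strand) had the largest fold change among the 12 genes tested and holds none of these strings in the windows searched.
SNORA33: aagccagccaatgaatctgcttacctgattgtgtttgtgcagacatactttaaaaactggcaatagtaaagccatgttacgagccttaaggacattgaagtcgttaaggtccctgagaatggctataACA
SNORA73B: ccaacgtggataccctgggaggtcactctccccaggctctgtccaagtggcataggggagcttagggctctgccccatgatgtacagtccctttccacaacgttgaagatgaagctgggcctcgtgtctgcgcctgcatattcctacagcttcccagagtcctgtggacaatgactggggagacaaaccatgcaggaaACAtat
SCARNA13: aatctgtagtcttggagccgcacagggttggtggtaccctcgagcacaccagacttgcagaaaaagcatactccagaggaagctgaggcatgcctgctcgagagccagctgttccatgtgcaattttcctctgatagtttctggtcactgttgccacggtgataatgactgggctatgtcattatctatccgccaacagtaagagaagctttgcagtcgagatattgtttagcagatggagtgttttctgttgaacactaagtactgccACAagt
SCARNA17: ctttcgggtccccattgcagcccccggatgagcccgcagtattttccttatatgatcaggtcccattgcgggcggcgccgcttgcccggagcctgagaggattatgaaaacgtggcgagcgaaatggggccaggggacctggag

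Counts on these genes were few and held by a handful of them. The 116 genes took 2982 counts in all, with a median of 3 per gene. SNORD104, which guides methylation of 28S ribosomal RNA, alone held 1228 counts (41.2%), and the 5 highest genes held 67.8%. At the other end, 34 genes had a total of 1 count, 39 had counts in 1 library, and 28 had counts in all 4 libraries. A total of at least 10 was reached by 29 genes and of at least 40 by 10 genes. Just inside the threshold of 1 count stood those 34 genes, and just outside it 378 genes had none.

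**Figure D1:**
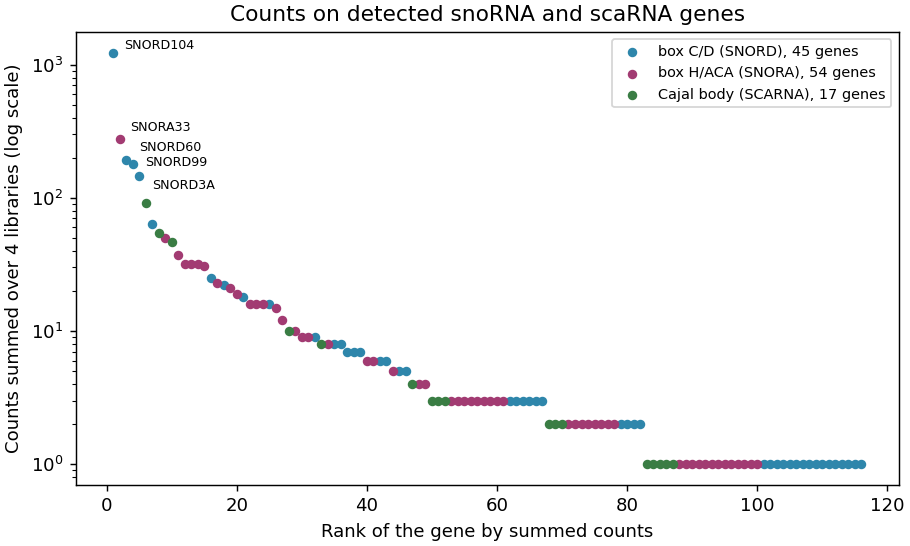
The 116 detected snoRNA and scaRNA genes are ranked on the x axis by the counts summed over 4 libraries, which the y axis gives on a log scale; colours mark the 3 classes. SNORD104 stands at 1228 counts, SNORA33 follows at 278, and the right end is a row of 34 genes with 1 count.

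The classes differed in how many of their genes had any read. A count was found for 17 of 20 SCARNA genes (85%), 54 of 194 SNORA genes (27.8%) and 45 of 280 SNORD genes (16.1%). The 280 include imprinted arrays with none detected, of 46 SNORD115, 28 SNORD116, 9 SNORD113 and 30 SNORD114 genes. These lower the SNORD share, and the SNORD and SNORA shares were not compared without them. For a gene at 0 in all libraries, 3 counts in the 59705277 counted reads put the upper limit at 0.0502 RPM, reads for every 1000000 counted reads. This limit, like the intervals below, covers counting error only. By library, 62 genes had a count in anti-GAA 1, 62 in anti-GAA 2, 75 in control 1 and 68 in control 2. Scaled to the depth of anti-GAA 1, the expected numbers were 62, 50.9, 65.2 and 55.8, so the ranges of the groups overlapped at equal depth.

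Summed over all 116 genes, the libraries held 684 counts in anti-GAA 1, 781 in anti-GAA 2, 908 in control 1 and 609 in control 2. Relative to the counted reads this was 64.9, 43.6, 59.2 and 38.2 RPM, with exact (Clopper-Pearson) 95% binomial intervals of 60.1 to 70.0, 40.6 to 46.8, 55.4 to 63.1 and 35.3 to 41.4. In both groups the library numbered 1 was above the library numbered 2, and these gaps were wider than those between the groups. On the log2 scale of TMM-scaled CPM, which is RPM after edgeR's normalisation of library sizes, the sum averaged 5.78 ± 0.46 (SD, n = 2) with anti-GAA and 5.52 ± 0.51 (SD, n = 2) with control. The difference of 0.26 was smaller than either SD (two-sided exact permutation test, p = 0.667). Between libraries of the same replicate number it was 0.22 for replicate 1 and 0.29 for replicate 2. The SDs include the gap between replicate numbers, and the permutation test takes no account of that pairing. With 2 libraries against 2 this test cannot give a p below 0.333. Whether fewer cells or less RNA per cell underlies a level cannot be told apart in bulk RNA.

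Box C/D genes took 417 counts in anti-GAA 1, 553 in anti-GAA 2, 619 in control 1 and 411 in control 2. These amount to 39.6, 30.9, 40.3 and 25.8 RPM, so both control libraries lay outside the narrower anti-GAA range in RPM. As TMM-scaled CPM they were 42.1, 31.0, 40.3 and 24.2, with control 1 inside the anti-GAA range. Anti-GAA minus control was 0.21 on the log2 scale of summed CPM, with 0.06 in pair 1 and 0.36 in pair 2 (two-sided exact permutation test, p = 0.667). A pair here is an anti-GAA and a control library with the same replicate number, whose titles also share a leading number.

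Box H/ACA genes took 189, 176, 212 and 170 counts in the same order of libraries, or 17.9, 9.84, 13.8 and 10.7 RPM. The anti-GAA libraries held both the highest and the lowest level. The log2 difference was 0.22, with 0.47 in pair 1 and -0.02 in pair 2 (two-sided exact permutation test, p = 1).

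scaRNA genes took 78, 52, 77 and 28 counts, or 7.40, 2.91, 5.02 and 1.76 RPM. Within each pair the anti-GAA library was the higher, by 0.65 and 0.82 on the log2 scale of summed CPM. The mean difference of 0.74 was smaller than the SD of 1.01 in anti-GAA and 1.13 in control (n = 2 each, two-sided exact permutation test, p = 0.667). These SDs include the gap between replicate numbers that both groups share, and the test takes no account of the pairs. SCARNA13, SCARNA22 and SCARNA17, which held most of these counts, each lie under an annotated exon of another gene. Restricted to the 11 scaRNA genes with no such exon, the difference was -0.02. None of these 11 had more than 10 counts in all, so this value rests on few reads. Whether the exons play a part was not tested. Without control 2, which leaves pair 2 incomplete, the difference over all scaRNA genes was -0.065. Without control 2 the C/D difference was likewise -0.16, and without anti-GAA 1 the H/ACA difference was -0.25.

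**Figure D2:**
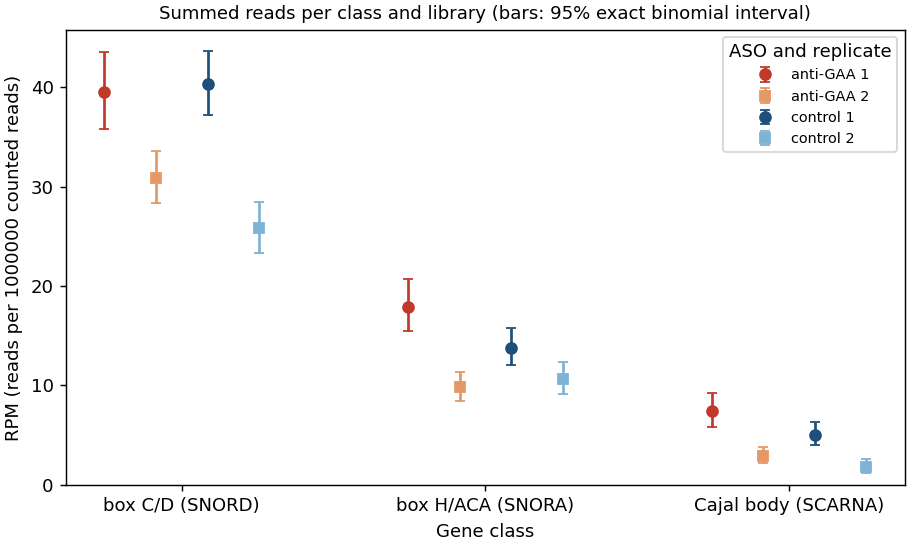
The summed level of each class in RPM (reads for every 1000000 counted) is plotted on the y axis for each library; bars are exact 95% binomial intervals, which cover counting error only. In each class the replicate 1 library of a group sits above its replicate 2 library, and the groups overlap.

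H/ACA was then set against C/D within each library, which removes the depth. For each C/D count there were 0.453 H/ACA counts in anti-GAA 1, 0.318 in anti-GAA 2, 0.342 in control 1 and 0.414 in control 2. Both control values lay between the anti-GAA values. The log2 ratio differed by 0.01 between the groups, with 0.40 in pair 1 and -0.38 in pair 2 (two-sided exact permutation test, p = 1). SNORD104 made up 57.7% to 63.5% of the C/D counts in each library. Without it the ratios became 1.23, 0.807, 0.938 and 0.977, again with the control values inside the anti-GAA range.

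Counting error alone was small enough to separate single libraries. For all genes, the anti-GAA library of pair 1 had 1.17 times the rate of its control (exact 95% interval 1.06 to 1.29), and that of pair 2 had 1.22 times (1.10 to 1.36). These intervals compare 2 libraries and not the ASOs, since the rate in control 1 exceeded that in control 2 by a wider margin than either.

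edgeR's quasi-likelihood test was fitted to 15116 genes that passed its filter on low counts. It included 12 of the 116 genes, 5 SNORD, 4 SNORA and 3 SCARNA, and 104 were not tested. The tested genes had totals of 31 counts or more, and the highest untested total was 32. None of the 12 was called at an adjusted p under 0.05 in either direction, where 0% of all tested genes were called lower and 0% higher. Their smallest Benjamini-Hochberg adjusted p in edgeR was 0.996, against 0.671 over all genes, and DESeq2 called 0 of them. At an unadjusted p under 0.05 the count was 1 higher and 0 lower, against 1.02% higher and 3.46% lower of all tested genes. The 1 higher, SCARNA17, passed the filter only through its anti-GAA libraries. Its call, and its place in the counts below, thus depend on the group where it was high. The log2 fold change was above 0 for 10 of the 12 and for 51.6% of all tested genes. Its median was 0.30 over the 12 and 0.01 over all tested genes, and by pair the median of the 12 was 0.22 and 0.44. Without anti-GAA 1 that median was -0.035 and without control 2 it was 0.017, whereas it was 0.65 without anti-GAA 2 or without control 1. The groups did not overlap in CPM for 2 genes higher with anti-GAA (SNORD99 and SCARNA17) and 1 lower (SNORD14A), where 15.5% of all tested genes were higher and 16.9% lower without overlap.

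**Figure D3:**
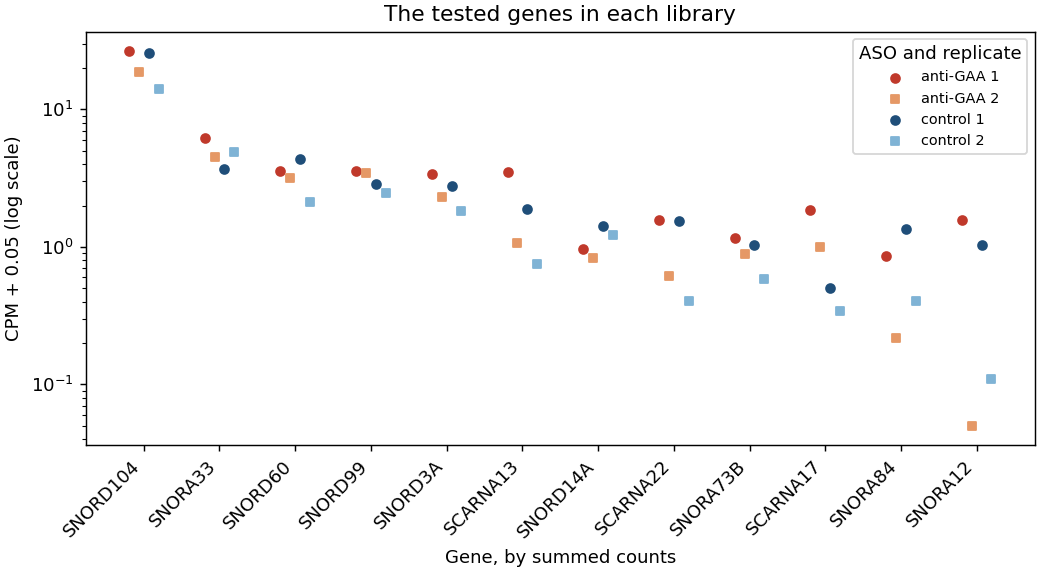
CPM after edgeR's normalisation, plus 0.05 for display, is plotted on a log y axis for the 12 tested genes in each of the 4 libraries, with no averaging. SCARNA17 and SNORD99 have both anti-GAA libraries above both controls, SNORD14A has both below, and the other 9 overlap.

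Among the box C/D genes, SNORD104 had 26.5 and 18.8 CPM with anti-GAA and 25.6 and 14.0 with control. The libraries paired off by replicate number, and the groups overlapped. The log2 fold change was 0.19 ± 0.34 (SE), with an edgeR adjusted p of 0.996. SNORD104 lies in an intron of SNHG25, a long noncoding RNA named as a snoRNA host, which had 110 and 120 CPM against 133 and 83.5, a log2 fold change of 0.09.

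SNORD99, a methylation guide for 28S ribosomal RNA, had 35 and 61 counts with anti-GAA and 43 and 41 with control. Scaled to depth these were 3.53 and 3.42 CPM against 2.80 and 2.41, so the groups did not overlap. The log2 fold change was 0.41 ± 0.35 (SE), not past the threshold. Its host SNHG12 had 147 and 111 CPM with anti-GAA and 224 and 226 with control, a log2 fold change of -0.80 ± 0.21 (SE), with an edgeR p of 0.00728 and an adjusted p of 0.922. The snoRNA and its host thus had fold changes of opposite sign, and the difference between them was not tested.

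SNORD60, another guide for 28S ribosomal RNA, had 3.53 and 3.14 CPM with anti-GAA and 4.30 and 2.06 with control. Both anti-GAA values lay inside the control range, and the log2 fold change was 0.07 ± 0.45 (SE). Its host SNHG19 had 120 and 202 CPM against 89.8 and 87.8, a log2 fold change of 0.86 with an edgeR p of 0.0172 and an adjusted p of 0.996. An exon of SNHG19 is annotated over SNORD60 on the same strand, so reads of the host's spliced RNA and of the snoRNA share sequence there.

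SNORD14A, the U14 snoRNA that pairs with 18S ribosomal RNA, had 9 and 14 counts with anti-GAA and 21 and 20 with control. It was at 0.908 and 0.786 CPM against 1.37 and 1.18, lower in both anti-GAA libraries, with a log2 fold change of -0.59 ± 0.47 (SE). Its host RPS13, a ribosomal protein gene, was at 1927 and 1328 CPM against 1224 and 1049, a log2 fold change of 0.52 with an edgeR p of 0.0709 and an adjusted p of 0.996.

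SNORD3A, a gene for the U3 snoRNA with its own promoter, had 33 and 40 counts with anti-GAA and 42 and 30 with control, a log2 fold change of 0.29 ± 0.43 (SE). Its annotated length of 699 nt exceeds the mature RNA, and U3 has several near-identical gene copies, so the counts of any single copy are uncertain. Of the other genes fixed for an own promoter, SNORD118 (U8) and SNORD13 (U13) were at 0 in all 4 libraries, and SCARNA2 was not analysed here.

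Among the H/ACA genes, SNORA33, a pseudouridylation guide for 28S ribosomal RNA, had 61 and 79 counts with anti-GAA and 56 and 82 with control. At 6.15 and 4.43 CPM against 3.65 and 4.83 the groups overlapped, and the pairs differed in sign, with 0.73 in pair 1 and -0.12 in pair 2 on the log2 scale. The log2 fold change was 0.31 ± 0.35 (SE). Its host RPS12 ranged from 3910 to 5933 CPM, more than any other host of a tested gene, with a log2 fold change of -0.01.

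SNORA73B, of the U17 type, had 11 and 15 counts against 15 and 9, a log2 fold change of 0.36 ± 0.55 (SE), and its host RCC1 had 0.08. SNORA84 had 8 and 3 counts against 20 and 6, a log2 fold change of -0.90 ± 0.93 (SE), with host IARS1 at 0.09. SNORA12 had 15 and 0 counts with anti-GAA and 15 and 1 with control. Its reads were in the replicate 1 library of each group, and no difference between ASOs was detectable at this depth.

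Among the scaRNA genes, SCARNA17 had the largest fold change of the 12 tested genes. It had 18 and 17 counts with anti-GAA and 7 and 5 with control, or 1.82 and 0.954 CPM against 0.456 and 0.294. Both anti-GAA libraries were above both controls. Only the anti-GAA libraries were high enough for the filter on low counts, so it was tested because it was high there. The log2 fold change was 1.83 ± 0.61 (SE), with an edgeR p of 0.0203 and an adjusted p of 0.996, so it was not called among 15116 tests. With counting error only, the rate ratio was 3.98 (exact 95% interval 1.59 to 11.3) in pair 1 and 3.24 (1.15 to 11.2) in pair 2. DESeq2 gave an unadjusted p of 0.0602. With the replicate number as a block, the edgeR adjusted p was 0.0923. SCARNA17 lies under an exon of SNHG22, whose own level was 0.0651 to 0.303 CPM, too low to be tested.

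SCARNA13, in the snoRNA host gene SNHG10, had 34 and 18 counts with anti-GAA and 28 and 12 with control, or 3.43 and 1.01 CPM against 1.82 and 0.706. It was higher with anti-GAA within each pair, by 0.87 and 0.45, but the libraries overlapped and the log2 fold change of 0.76 had an SE of 0.72. SNHG10 itself had a log2 fold change of 0.17. SCARNA22, within the histone methyltransferase gene NSD2, had 15 and 10 counts against 23 and 6, a log2 fold change of 0.10 ± 0.81 (SE).

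**Figure D4:**
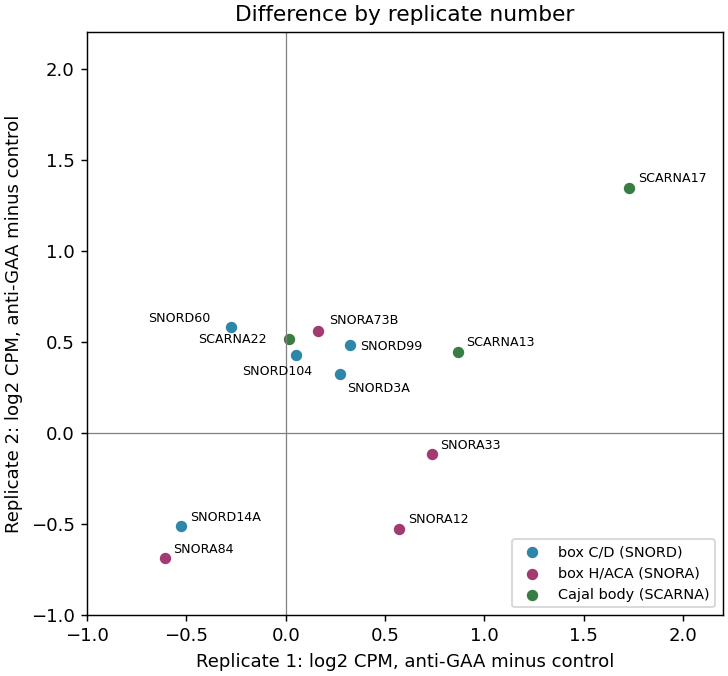
For the 12 tested genes, the x axis gives the log2 CPM difference (anti-GAA minus control, with a prior count of 2) in the replicate 1 libraries and the y axis that in the replicate 2 libraries. 7 genes lie above 0 in both, 2 below 0 in both and 3 have opposite signs. The shares of all tested genes with these patterns were not computed. SCARNA17 is farthest from 0.

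By pair, 7 of the 12 genes were higher with anti-GAA in both pairs, 2 were lower in both (SNORD14A and SNORA84), and 3 changed sign between pairs (SNORD60, SNORA33 and SNORA12). The host was itself tested for 10 of the 12, and 6 of these 10 had a fold change of the same sign as their host. The shares of all tested genes with these patterns were not computed, so these counts are descriptions and not a result about the class.

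With no filter on low counts, all 116 genes entered a fit of 28017 genes. Their median log2 fold change was 0.21, against -0.03 over all genes in that fit. At an unadjusted p under 0.05, 1 was lower (SNORD14E, 0 and 0 counts against 5 and 2) and 1 higher (SCARNA17), where 3.62% of all genes were lower and 1.09% higher. The edgeR p of SNORD14E was 0.0463. No adjusted p of the 116 was under 0.411 in this edgeR fit. By class, the median was 0.06 for SNORD, 0.26 for SNORA and 0.21 for SCARNA. Both values of 0.21, for all 116 genes and for SCARNA, equal the fit of SCARNA1 (SE 2.86). Its counts were 1 in anti-GAA 1, 1 in control 1 and 0 in the other libraries, so these medians rest on single reads.

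Levels between genes were compared as mean CPM per kb of annotated length, here relative to library totals without TMM scaling. SNORD104 stood at 301, followed among box C/D genes by SNORD99 at 40.9, SNORD60 at 39.0, SNORD14A at 11.7, SNORD11 at 5.55 and SNORD63 at 4.74 CPM per kb. The H/ACA order was SNORA33 at 36.5, then SNORA84 at 4.90, SNORA80A at 4.70, SNORA3B at 4.33, SNORA31B at 4.32 and SNORA73B at 4.2. The 5 H/ACA genes after SNORA33 rest on 32 to 50 counts each, and no test told them apart. The scaRNA order was SCARNA22 at 7.72, SCARNA13 at 6.19, SCARNA17 at 5.95, SCARNA11 at 1.27, SCARNA21 at 1.06 and SCARNA23 at 0.371 CPM per kb.

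Hosts of detected genes had higher median levels than hosts of undetected genes. The host was taken as the gene of the same strand that contains the snoRNA and has the highest mean CPM. Host levels here and below are relative to library totals, without TMM scaling. For box C/D genes the median host level was 147 CPM for detected and 0.0279 CPM for undetected genes. The latter is below the 0.0502 RPM that 3 counts over all libraries amount to. The undetected box C/D genes include the imprinted arrays named below, and their median was not computed without them. For H/ACA genes it was 86.1 and 36 CPM. These are descriptions with no test, since detection was the rule for choosing the genes. Of 140 genes with a host under 1 CPM, 6 were detected. The large imprinted arrays had none, with 0 of 46 SNORD115, 0 of 28 SNORD116, 0 of 9 SNORD113 and 0 of 30 SNORD114 genes.

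At abundant hosts, fewer genes were detected where an exon of another gene is annotated over the snoRNA on its strand. Among genes with a host of at least 100 CPM, 40 of 51 with no such exon were detected (78.4%), and 14 of 92 with one (15.2%). With such an exon the share was higher at hosts of 10 to 100 CPM, at 7 of 18 (38.9%), so detection did not follow host level throughout. For SNORD genes these were 21 of 26 and 5 of 52, and for SNORA genes 17 of 23 and 6 of 37. Ribosomal protein genes hosted 59 snoRNA genes, of which 13 were detected, and 11 of the 15 with no exon over them were. TAF1D, whose introns carry 8 of these genes, gave 1 count on SNORD6 and none on the other 7. The study's sources used here do not state how reads on more than 1 gene were counted, and the part of that setting in these shares was not tested.

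**Figure D5:**
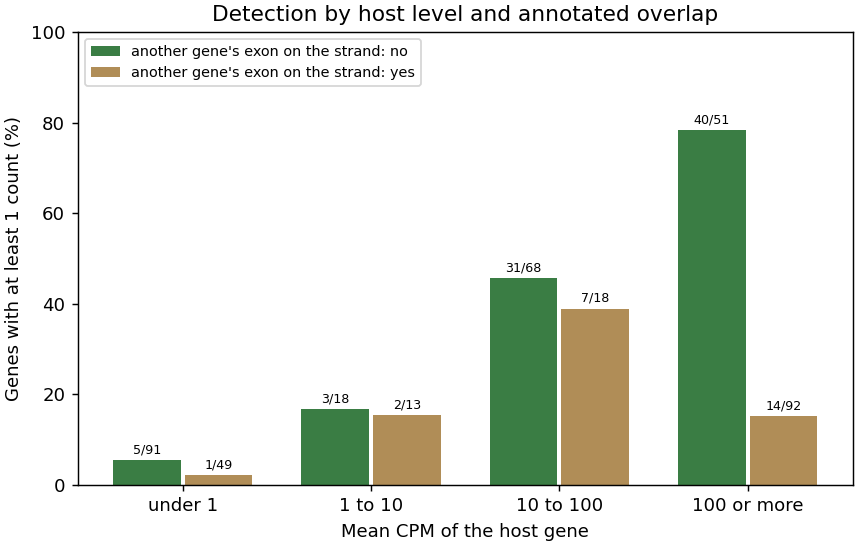
The share of snoRNA and scaRNA genes with at least 1 count is plotted by the mean CPM of the host gene, split by whether an exon of another gene is annotated over them on the same strand; numbers above bars are detected over all genes in the table. At hosts of 100 CPM or more, 40 of 51 are detected without such an exon and 14 of 92 with one. Host levels are relative to library totals, without TMM scaling.

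A small set of noncoding hosts carried most reads. Genes hosted by SNHG long noncoding RNAs were 9 of the 116 and held 58.6% of all counts, nearly all on SNORD104, SNORD60, SNORD99, SCARNA13 and SCARNA17. SNORD104 alone had 1228 of their 1748 counts. Protein-coding hosts carried 86 of the 116 genes and 31.8% of the counts. Detected and undetected genes were alike in length, with medians of 86 and 80 nt for SNORD and 133.5 and 134 nt for SNORA. A C box core was found in 66.7% of detected and 67.7% of undetected SNORD genes. A D box was found in 88.9% of detected and 89.4% of undetected SNORD genes, and an ACA end in 90.7% and 77.1% of SNORA genes. Among the 115 detected genes with a transcript sequence, none held a tandem GAA stretch, in any phase, longer than 8 nt.

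The messenger RNAs of the core proteins of the particles had 114 counts or more in every library and did not pass the test either. The proteins themselves were not measured. Of the box C/D core proteins, fibrillarin (FBL), the methyltransferase, had 9497 and 12321 counts with anti-GAA and 12182 and 9426 with control, a log2 fold change of 0.29 ± 0.26 (SE). NOP58 had 1838 and 2253 against 3161 and 3751, a log2 fold change of -0.45 ± 0.24 (SE) with an edgeR p of 0.0978 and an adjusted p of 0.996. NOP56 and SNU13 had log2 fold changes of -0.13 and -0.01. Of the H/ACA core proteins, the pseudouridine synthase dyskerin (DKC1) had a log2 fold change of -0.16, GAR1 0.24, NHP2 -0.25 and NOP10 0.22. Adjusted or unadjusted, 0 of these 8 genes were called by edgeR, where an unadjusted p under 0.05 was reached by 3.46% of all tested genes in the lower and 1.02% in the higher direction.

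The lists of assembly factors, processing enzymes, Cajal body and transport factors and other small RNAs likewise had 0 adjusted and 0 unadjusted calls in edgeR, read against the same shares. The 9 measured assembly factors had a median log2 fold change of 0.08, with 7 above 0 and 2 below, and the helicases RUVBL1 and RUVBL2 at 0.11 and 0.18. The 22 processing enzymes had a median of 0.02, with 12 above 0 and 10 below, and the exonuclease XRN2 at 0.28 and MPHOSPH6, an exosome cofactor, at -0.02. The 10 Cajal body and transport factors had a median of 0.15, with NOLC1 at 0.08 and the cap-binding protein NCBP2 at 0.27. Among other small RNAs that lack a poly(A) tail, 20 of 29 listed were in the table, 7 were at 0 in all libraries, and 2 were tested. The telomerase RNA TERC, itself an H/ACA RNA, had 112 and 197 counts with anti-GAA and 173 and 112 with control, a log2 fold change of 0.32 ± 0.33 (SE). The vault RNA VTRNA1-3 had 18 and 18 counts against 40 and 10, a log2 fold change of -0.20 ± 0.73 (SE). Of the markers, KRT18 was lower at an unadjusted edgeR p of 0.0434 (adjusted p = 0.996, log2 fold change -0.54).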

How the data were processed

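RNA-seq of HCT116 cells was analysed in 4 libraries, 2 per ASO. The authors used Trimmomatic for trimming, STAR for alignment to hg19 and featureCounts for counting over annotated genes, after dropping alignments to GL contigs. The deposited values are raw counts of 63677 genes by Ensembl identifier. Strand and multiple-mapping settings are not given in the sources used here. The labels name a total RNA library kit and the study's methods an mRNA kit, and the sources used here do not settle which was used. The study's methods speak of duplicate experiments, and its reporting summary of independent repeats. Whether these libraries came from separate cultures is not stated in the labels, so p-values measure the spread between these libraries.

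Symbols, lengths, hosts, exon overlap and sequences came from GENCODE release 44 by identifier (52181 matched), not by coordinate. The members and lists were chosen with earlier results of these data known. Counts passing filterByExpr were normalised by TMM and tested with edgeR 4.0.16 (quasi-likelihood, ASO as the only term) in R 4.3.3, and the Benjamini-Hochberg adjustment took in every gene tested, with a threshold of 0.05. DESeq2 1.42.0, other scalings, no filter, a replicate block and leaving out each library were alternatives. The fits were also run on simulated data with the same dispersion for all genes and no effect of replicate number. Genes were changed there only at higher counts than most members have, so that run does not cover genes with few counts. Summed levels were compared on log2 TMM-scaled CPM by exact permutation, and log2 CPM of single genes used a prior count of 2. Each SE of an edgeR fold change is its absolute log2 value divided by the square root of the test's F statistic. It therefore restates the test and is not a separate estimate. A rate ratio of 2 libraries used an exact conditional binomial interval. Depth was 10538284 to 17894953 counts.

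The genes named were the 6 highest per kb in each class, the 5 smallest p-values in each direction among tested members, the genes with an own promoter, the core proteins, the 2 highest genes of each other list with any past an unadjusted p of 0.05, and their hosts. SNORD14E, SNORD6 and the untested markers named were chosen after their values were seen.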

Additional observations from a re-analysis of the deposited data

How the results depend on the processing

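No adjusted call was made on a snoRNA or scaRNA gene under any alternative run, and 220 alternative values kept direction and side of the threshold, while 30 changed sign. The other 12 were counts of genes that changed by over 1.5 times or medians that moved by more than the spread between pairs. Among these medians, that without anti-GAA 1 also changed sign, to -0.035. Values of the same sign could still differ in size by over 1.5 times, as the ranges below show. With the replicate block, edgeR called 258 genes and again 0 of the 12, with SCARNA17 at a log2 fold change of 1.84 and an adjusted p of 0.0923. The labels share a replicate number between groups, and the titles of same-numbered libraries share a leading number. What either number stands for is not stated. Deviations of same-numbered libraries correlated across 15116 genes (r = 0.564). DESeq2 called 3 genes and the fit with no filter 116, of which none was a member. At an unadjusted p, 1 gene was lower with no filter, 0 were higher with DESeq2, and leaving out 1 library gave 0 to 1 lower and 0 to 3 higher. The 3 higher were of 16 tested without anti-GAA 2, where 2.02% of all genes were higher, and the 1 lower was of 12 tested without anti-GAA 1, where 3.33% of all genes were lower. The median log2 fold change of the tested genes ran from -0.035 to 0.65 when 1 library was left out, being -0.035 without anti-GAA 1, 0.65 without anti-GAA 2, 0.65 without control 1 and 0.017 without control 2. With 1 library left in an arm, that library is assumed to vary like the others. Leaving out 1 library also breaks its pair. Under the same leaving out, the summed log2 difference ran from -0.16 to 0.58 for C/D, from -0.25 to 0.70 for H/ACA, from -0.065 to 1.54 for scaRNA and from -0.24 to 0.27 for H/ACA over C/D. With only genes that have no exon of another gene over them the scaRNA difference was -0.016, from genes with at most 10 counts each. As a median over genes with a mean of at least 10 counts, H/ACA over C/D was -0.12. Requiring at least 5 or 10 counts left 46 or 29 detected genes. Single genes whose sign turned when 1 library was left out had log2 fold changes of -0.17 to 0.69 (SNORD104), -0.36 to 0.68 (SNORD60), -0.31 to 1.58 (SCARNA13), -0.69 to 1.46 (SCARNA22), -0.015 to 0.84 (SNORA73B), -2.23 to 0.30 (SNORA84), -6.10 to 3.32 (SNORA12), -0.36 to 0.072 (NOP56), -0.30 to 0.30 (SNU13), -0.36 to 0.074 (DKC1), -0.19 to 0.61 (GAR1) and -0.57 to 0.15 (NHP2). SCARNA17, which entered the main fit only through its anti-GAA libraries, stayed between 1.35 and 2.26. SNORD60 was at -0.012 with library totals only, and SNU13 at 0.0057 with DESeq2's size factors and 0.0076 in DESeq2. Beyond leaving out libraries, the cause of a changed sign was not tested.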
